A study of Mus musculus with 8 samples.

Results

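The expression landscape of the untreated mouse esophagus was described from the 5 control libraries among the 8 whole-esophagus RNA-seq libraries of a detergent exposure study. The members were the libraries whose treatment label reads none, and the gene set was every identifier with a mean of at least 1 in counts per 1000000 counts of the library (CPM) over them, which was 14600 of 49315 identifiers. The controls were wild-type (WT) mice on untreated water, sampled at day 14. The other 3 libraries came from wild-type mice given 0.5% sodium dodecyl sulfate (SDS) in the drinking water until day 14, and they entered no value below. The labels name no strain, sex or age. The design text counts mice while the sample labels name no animal, so an SD or CV below measures the spread between 5 libraries, part of which may be technical. The protocol text speaks of cell pellets as the material for RNA extraction, whereas the treatment text and the design speak of the whole organ.

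The mouse esophagus is a tube lined by a keratinized stratified squamous epithelium. Basal cells divide on the basement membrane and carry keratins 5, 14 and 15, while their daughters move towards the lumen, switch to keratins 4 and 13, and end as cornified squames held by cross-linked envelope proteins. Below lie a connective tissue layer with vessels, nerves and a thin smooth muscle layer, an outer coat that in mice is largely striated muscle, and loose tissue with fat. The whole organ was homogenized, so every level below is a sum over these layers, and fewer cells of a type cannot be told apart from less RNA per cell.

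Assigned counts ran from 22033866 to 29802362 per library. Each library held between 14041 and 14881 genes at 1 CPM or more, and 3 counts corresponded to 0.101 to 0.136 CPM. Trimmed-mean scaling factors (TMM) were 1.04, 0.95, 0.919, 1.1 and 1.01 for control libraries 1 to 5, so that scaling lowers every value in library 4 and raises every value in library 3. Libraries 3 and 4 stood farthest apart, with 2358 genes (16.2%) differing by 2-fold or more after 0.5 CPM was added. Libraries 2 and 3 were nearest, with 152 genes (1.04%) that far apart. All 5 libraries expressed the Y-linked genes Eif2s3y (74.3, 68.2, 70.5, 69 and 65 CPM) and Ddx3y (66.4, 64.5, 62.1, 79.3 and 62.9 CPM), and Xist was between 0.537 and 2.98 CPM.

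A small number of epithelial and muscle genes held much of the RNA. The most abundant gene of a library took 4.35 ± 1.53% of its counts (mean ± SD, n = 5), the first 10 took 15.8 ± 2.6%, and the first 100 took 32.3 ± 2.51%. The number of genes that together held 50% of the counts was 540, 435, 436, 667 and 531 in control libraries 1 to 5. Library 4 was thus the least concentrated and libraries 2 and 3 the most. Over all genes of the set the median of the mean levels was 20.4 CPM; 1782 genes reached 100 CPM and 75 reached 1000 CPM. The set held 99.8% of all counts, and 13516 of its genes were at 1 CPM or more in every library. Hspd1-ps3 (1.001 CPM) and Gm5431 (1.000 CPM) lay just inside the limit, and Tc2n and Gm5526 (Gm5526 at 0.9998 CPM) just outside it.

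**Figure D1:**
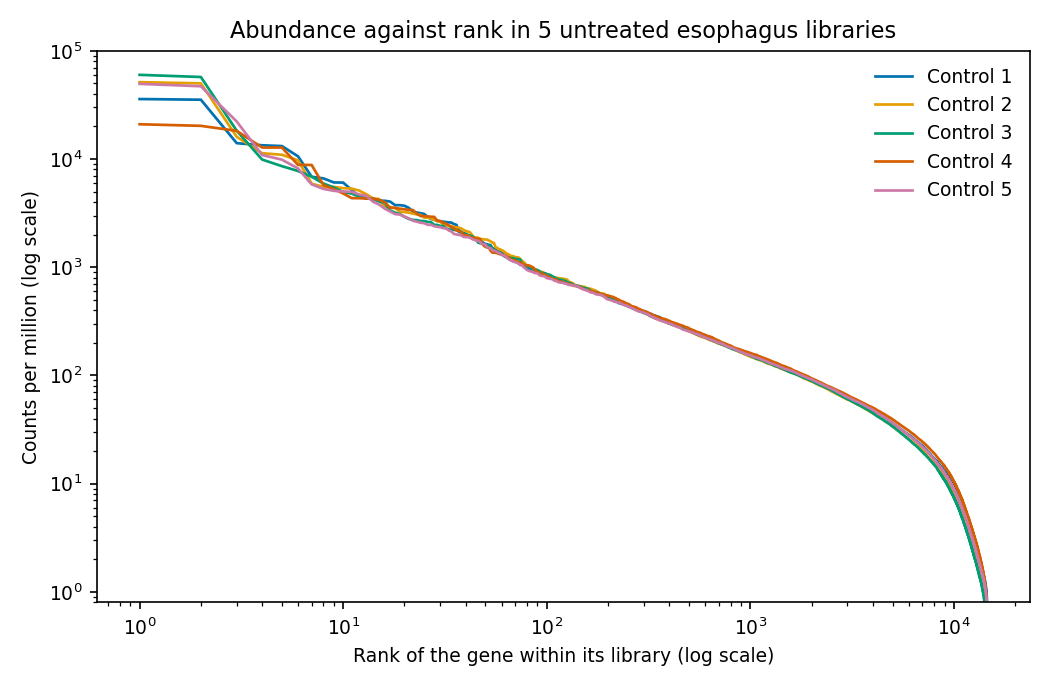
CPM against rank for the 14600 genes within each of the 5 untreated libraries, both axes on log scales, 1 line per library. At the top the most abundant gene stands at 20935 CPM in library 4 (Krt13) and at 59902 CPM in library 3 (Krt4), and the lines run close together further down.

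By CPM the first 20 genes were keratinocyte, striated muscle and mitochondrial genes with a single translation factor and a single noncoding RNA. Krt4, the type II keratin of suprabasal cells, stood first at 43227 ± 15590 CPM and Krt13, its type I partner, second at 42180 ± 14158 CPM. Their difference was smaller than either SD, and in libraries 1 and 4 Krt13 was the higher. Lor, which encodes loricrin, a main protein of the cornified envelope, followed at 16481 ± 3904 CPM. Further epithelial genes were Rptn (5224 CPM), Asprv1 (4621 CPM), Slpi (4541 CPM) and Dmkn (3536 CPM), which encode an envelope protein, a filaggrin-processing protease, a secreted protease inhibitor and a secreted product of differentiating keratinocytes. The muscle side held Acta1, the skeletal actin, at 11105 ± 1989 CPM, the myosin heavy chains Myh8 (9010 CPM) and Myh1 (5247 CPM), the glycolytic enzyme Aldoa (5322 CPM), Ckm (4742 CPM), Tnnt3 (4104 CPM), Tpm2 (3447 CPM) and the calcium pump Atp2a1 (3283 CPM). Mitochondrial mt-Co1 (12851 CPM), mt-Cytb (6154 CPM) and mt-Nd1 (3331 CPM), the elongation factor Eef1a1 (4691 CPM) and the imprinted lincRNA H19 (3092 CPM) completed the 20.

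Dividing by the joined exon length in the deposited tables (transcripts per 1000000, TPM) reordered the list. Krt13 came first at 57276 ± 18726 TPM and Krt4 second at 50129 ± 17678 TPM; their difference was smaller than either SD, although Krt13 was the higher in all 5 libraries. Lor (22976 ± 5435 TPM), mt-Co1 (20693 ± 5710 TPM) and Acta1 (17957 ± 3343 TPM) followed, and Lor and Acta1 each lay within an SD of mt-Co1. Short transcripts moved up: Krtdap, a small secreted keratinocyte protein, reached 9162 TPM, Crct1 5177 TPM, Sprr3 4722 TPM, the epithelial metallothionein Mt4 4596 TPM, Fam25c 4363 TPM, myoglobin (Mb) 4205 TPM and fast troponin C (Tnnc2) 6023 TPM. Of Tnnc2's exon bases, 74% overlap Ube2c on the opposite strand, and the strand setting of the counting is not given, so reads of this pair may be divided between them. The first 20 genes of the CPM and TPM orders shared 11, the first 100 shared 65 and the first 500 shared 333.

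Length moved some genes far in the order. Dst, which encodes the giant linker dystonin over 41155 exon bases, was 209th by CPM at 512 CPM and 3784th by TPM. Huwe1, Wnk1, Lrp1 and Ube2d3 fell from places 264 to 435 to places 2826 to 3873. In the other direction the mitochondrial transfer RNA genes mt-Tc, mt-Tn, mt-Te and mt-Tp and the microRNA gene Mir7678 rose, each over 66 to 71 bases of length. Gm23935, a 57-base gene of the miRNA class, held only 258 CPM but stood 7th by TPM at 11246 TPM. A gene shorter than a sequenced fragment cannot be compared per length with long messages, and without features under 200 bases the first 20 shared 11 and the first 100 shared 68.

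Protein-coding genes made up 13539 of the 14600 genes and 98.5% of counts. The 226 lincRNA genes held 0.779% of counts and the 258 antisense genes 0.115%. Of the lincRNA genes H19 took the most counts, with 3699, 3233, 2459, 3436 and 2633 CPM in control libraries 1 to 5. Neat1, the scaffold of nuclear paraspeckles, followed with 2077 ± 451 CPM, then Gm42418 with 799 ± 125 CPM and Malat1 with 371 ± 69.8 CPM. Median spread between libraries, as the coefficient of variation (CV, the SD over the mean), was 24.9% for lincRNA and 25.5% for antisense genes against 15.9% for protein-coding genes; the CV that counting alone would give had medians of 12%, 13.6% and 4.05%.

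Genes encoded in mitochondrial DNA took 2.98 ± 0.807% of counts. The share was highest in library 4 at 4.22% (95% Wilson interval 4.22 to 4.23%) and lowest in library 3 at 2.23% (2.22 to 2.23%), intervals that cover counting error only. Levels per length differed widely among the 13 protein-coding genes of this group. Of these 13, 7 genes, namely mt-Co1, mt-Cytb, mt-Nd1, mt-Nd5, mt-Nd2, mt-Nd4 and mt-Nd6, had mean levels per length from 3086 to 20693 TPM. The other 6, mt-Nd3, mt-Co3, mt-Atp6, mt-Nd4l, mt-Co2 and mt-Atp8, had means from 5.69 to 56 TPM, and mt-Atp8 was outside the set of 14600. The 3 cytochrome oxidase subunits show the gap: mt-Co1 read 14004, 11306, 9876, 18191 and 10878 CPM in control libraries 1 to 5, mt-Co2 2.28, 0.908, 1.11, 2.41 and 1.11 CPM and mt-Co3 3.61, 2.5, 1.98, 4.34 and 2.26 CPM. The gap held in every library and its cause was not tested.

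The epithelium gave the highest levels of all. The 22 listed suprabasal keratinocyte genes, which mark cells above the basal layer, summed to 84885, 118302, 136257, 52603 and 113451 CPM in control libraries 1 to 5. The 16 basal keratinocyte genes summed to 5357, 7164, 7069, 4384 and 7044 CPM. Both lists were lowest in library 4, in which 18 of 22 suprabasal and 12 of 16 basal genes had their lowest value. Over all 14600 genes, library 4 was the lowest for 2963. Every gene of both lists was in the set of 14600. The defining markers of the main layers were located as follows in the deposited coordinates (mm10): Krt13 (ENSMUSG00000044041) on chromosome 11 from 100117327 to 100121566, Krt4 (ENSMUSG00000059668) on chromosome 15 from 101918536 to 101924735 and Krt5 (ENSMUSG00000061527) on chromosome 15 from 101707070 to 101712891. Ckm (ENSMUSG00000030399) spans chromosome 7 from 19404776 to 19422841 and Adipoq (ENSMUSG00000022878) chromosome 16 from 23146536 to 23158028.

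Keratins made up most of both sums. Krt4 read 35295, 51251, 59902, 20244 and 49445 CPM in control libraries 1 to 5 and Krt13 read 35795, 49975, 57209, 20935 and 46985 CPM. Both had the same order of libraries, with library 3 highest and library 4 lowest. Although each varied by over 30% (CV 36.1% and 33.6%), the ratio of Krt13 to Krt4 in TPM stayed between 1.11 and 1.21, a CV of 3.75%. Summed over each family, type I exceeded type II keratins by a ratio of 1.08 to 1.15. Keratins are obligate heteropolymers of a type I and a type II chain.

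Basal keratins were lower by more than an order of magnitude per length. Krt5, the type II keratin of basal cells, read 2038, 3189, 2923, 1419 and 2929 CPM in control libraries 1 to 5 and averaged 2823 ± 815 TPM. Its type I partners Krt15 and Krt14 averaged 2026 ± 402 TPM and 793 ± 230.2 TPM, so that Krt15 was the more abundant of the pair in every library. The sum of Krt14 and Krt15 over Krt5 was between 0.922 and 1.18. Krt13 exceeded Krt5 in TPM by 17.7- to 23.5-fold. The hemidesmosome gene Col17a1 (323 ± 89 CPM), the integrin chains Itgb4 (140.1 CPM) and Itga6 (70.9 CPM), and the master regulator of stratified epithelia Trp63 (96.4 ± 18.6 CPM) marked the same layer.

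Other keratins were minor or uneven. Krt78 averaged 1202 ± 300.3 TPM and Krt80 423 ± 124 TPM. Krt6a, Krt6b, Krt16 and Krt17, keratins known for wounded or activated epithelium, averaged 71.8, 42.9, 10.9 and 11.8 TPM, where reads of the near-identical Krt6a and Krt6b may be shared. The epidermal pair Krt1 and Krt10, which belongs to cornified skin, read 55.3, 1.32, 1.78, 498 and 7.4 CPM and 44.2, 9.44, 9.73, 207 and 17.2 CPM in control libraries 1 to 5. Library 4 was thus far above the others for both, library 1 second, and Krt1 had the highest CV of all genes at 10 CPM or more (192%). The simple-epithelium keratins Krt8, Krt18 and Krt19 averaged 0.641, 0.773 and 2.62 CPM.

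Junction genes had their extremes in the same libraries as Krt4 and Krt13. Desmoplakin (Dsp) averaged 2147 ± 579.8 CPM, plakophilin 1 (Pkp1) 1240 ± 376 CPM, plakoglobin (Jup) 686 ± 178 CPM and the desmosomal tetraspan protein Perp 1614 ± 314 CPM. All 4 were lowest in library 4 and highest in library 3. Dmkn (12.2%) and Krtdap (7.88%) had lower CVs than Krt4 and Krt13. Krtdap read 2608, 2667, 2624, 2182 and 2467 CPM in control libraries 1 to 5, with library 4 the lowest.

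The bases before the start of the marker genes are shown because the stretch just upstream of the start site is where a TATA box lies in genes that have one. Each line gives 60 bases from RefSeq on build GRCm38.p6 (mm10), 5′ to 3′, ending at the base before the annotated start, with a TATAA or ATAAAA match in capitals where it lies 40 to 20 bases upstream.
Krt13 (chr11:100121567-100121626, minus strand): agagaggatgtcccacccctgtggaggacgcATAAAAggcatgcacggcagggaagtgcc
Krt5 (chr15:101712906-101712965, minus strand): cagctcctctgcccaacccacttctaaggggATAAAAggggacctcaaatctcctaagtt
Lor (chr3:92083143-92083202, minus strand): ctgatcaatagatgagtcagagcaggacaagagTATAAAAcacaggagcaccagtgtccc
Ckm (chr7:19411034-19411093, plus strand): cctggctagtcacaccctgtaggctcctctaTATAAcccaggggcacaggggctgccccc
Adipoq (chr16:23146476-23146535, plus strand): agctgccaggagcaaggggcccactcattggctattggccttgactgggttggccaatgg
Krt13 and Krt5 carry ATAAAA at the same distance, from -29 to -24. Lor carries both motifs as one run from -27 to -21 and Ckm carries TATAA from -29 to -25. Adipoq has no match in that stretch, which says only that these letters are not there. Krt4 was not among the table's entries. On the gene's own strand a match of either motif in the stretch from 40 to 20 bases upstream was present in 1356 of 32851 promoters (4.13%) and on the opposite strand in 648 (1.97%). Motif matches describe letters and not sites in use.

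Genes of the cornified envelope, the cross-linked protein shell of the surface squames, formed the next tier. The 28 listed genes summed to 34826, 44383, 51718, 28682 and 49015 CPM in control libraries 1 to 5, or 57953 ± 13764 TPM, and 25 of them were in the set. Library 4 held the lowest value of 19 of those 25 and library 3 the highest of 16. In the whole set of 14600 genes these numbers were 2963 and 2170. Lor read 13165, 16038, 18258, 12748 and 22198 CPM, with library 5 the highest. The transglutaminases that cross-link the shell differed in level: Tgm3 averaged 1774 ± 679.8 TPM and Tgm1 369 ± 118 TPM. Periplakin (Ppl, 2061 CPM) and envoplakin (Evpl, 1018 CPM) anchor it to desmosomes.

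Members of the same envelope families spanned several orders of magnitude. Among the small proline-rich proteins Sprr3 averaged 4722 ± 1528 TPM and Sprr1a 977 ± 561 TPM, while Sprr2d, Sprr2a1 and Sprr4 averaged 9.75, 4.44 and 0.747 TPM. Their near-identical copies can share reads, so the division within the Sprr2 group is uncertain. Involucrin (Ivl) averaged only 4.97 TPM and trichohyalin (Tchh) 2.24 TPM. Filaggrin (Flg), the matrix protein of epidermal squames, read 101, 6.72, 12.5, 342 and 51 CPM in control libraries 1 to 5, so that it was highest in library 4, where Lor and most other envelope genes were lowest. Flg2 averaged 0.778 CPM.

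Many of these genes sit together in the epidermal differentiation complex on chromosome 3, from 90511034 to 93564643 in the deposited coordinates (mm10). It held 121 identifiers, 62 of them in the set, which is 0.425% of the set's genes but 3.46 ± 0.741% of counts and 6.24 ± 1.32% of TPM. By library its share of counts was highest in library 3 and lowest in library 4. The type II keratin cluster on chromosome 15 held 4.79 ± 1.66% of counts in 11 genes of the set, and the type I cluster on chromosome 11 held 4.40 ± 1.45% in 10. The ends of these clusters were chosen after the values were seen. Of the 25 envelope genes in the set, 21 had a promoter in the RefSeq table, and 10 of those (47.6%) held TATAA or ATAAAA in the stretch described above, among them Lor, Sprr3, Sprr1b, Rptn, Ivl and Tgm3. The share over all promoters was 4.13%, and on the opposite strand 2 of the 21 (9.52%) did. For the whole set only 75.5% of genes had a promoter in the table, under the 80% needed, so a share over the set is void and is not given.

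Protease inhibitors and calcium-binding proteins were a further epithelial output. The 12 listed clade B serpins, intracellular protease inhibitors, summed to 4897 ± 472 CPM, a CV of 9.63%. Serpinb3a averaged 1903 ± 579 TPM and Serpinb12 1731 ± 273 TPM. Serpinb3c, a near-identical copy of Serpinb3a, read 291, 21.2, 23.2, 531 and 142 CPM in control libraries 1 to 5, with library 4 the highest and libraries 2 and 3 low. The division of reads among the Serpinb3 copies is uncertain. Of the S100 calcium-binding proteins, S100a14 (1508 ± 386 TPM) and S100a16 (1053 ± 303 TPM) led, while S100a8 and S100a9, known from neutrophils and inflamed epithelium, averaged 18.6 and 161 TPM.

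Markers of division were present at low levels, with a median CV of 18.7%. The 18 cell cycle genes were all in the set and summed to 319, 346, 279, 273 and 288 CPM in control libraries 1 to 5. Ube2c, whose exons overlap Tnnc2, made up 96.5 CPM of the mean. Mki67, the common marker of cycling cells, read 24.6, 27.5, 25.8, 17.4 and 24.6 CPM, and Top2a 21.6, 29.1, 20.3, 15.9 and 19.4 CPM. Library 2 was the highest for 14 of the 18 genes and library 4 the lowest for 13. In the whole set of 14600 genes these numbers were 1393 and 2963.

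Striated muscle genes held the other large share of counts. The 32 sarcomere genes, which build the contractile unit of skeletal muscle, summed to 61001, 50359, 38292, 56743 and 43065 CPM in control libraries 1 to 5, or 59425 ± 11522 TPM. The sum was highest in library 1 and lowest in library 3, the highest for suprabasal genes. Of the 31 sarcomere genes in the set, 16 were highest in library 4 and 12 in library 1, and 23 were lowest in library 3. In the whole set of 14600 genes these numbers were 6828, 1928 and 5899. The ratio of Krt13 to Acta1 in TPM accordingly ran from 1.38 in library 4 to 5.62 in library 3. Under TMM scaling the order below library 1 changed, with library 2 above library 4. The cause of this spread was not tested.

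Fast-fibre isoforms dominated. Acta1 read 13383, 10940, 8588, 12756 and 9859 CPM in control libraries 1 to 5, and Ckm, the muscle creatine kinase that buffers ATP, 6052, 5328, 3939, 4351 and 4038 CPM. Of Ckm's exon bases, 15.5% overlap an antisense gene that averaged 13.6 CPM. Fast troponins Tnnt3 (6434 ± 1245 TPM), Tnni2 (3625 ± 711 TPM) and Tnnc2 (6023 ± 1173 TPM) stood far above the slow isoforms Tnnt1 (49.3 ± 64 TPM), Tnni1 (8.14 ± 8.17 TPM) and Tnnc1 (2.56 ± 2.63 TPM). The slow isoforms were also the uneven ones: Tnnt1 read 56, 3.77, 5.8, 135 and 15.2 CPM, highest in library 4. Cardiac and slow-fibre Myl2 was at most 0.438 CPM, which is 12 counts.

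Myosin heavy chain, the motor of the thick filament, is made by separate genes for embryonic, perinatal, slow and fast fibres. Myh8, the perinatal isoform, made up 42.8 ± 1.14% of sarcomeric myosin heavy chain TPM, with 43.2, 41.2, 44.2, 42.3 and 43.1% in control libraries 1 to 5. Myh1, the fast 2X isoform, made up 50.04, 33.5, 45.6, 51.2 and 51.6%. The remaining fast genes differed most between libraries. Myh4, the 2B isoform, took 4.27, 25.2, 9.996, 0.431 and 4.9%, and Myh2, the 2A isoform, took 2.32, 0.122, 0.108, 5.82 and 0.3%. In CPM, Myh4 read 535, 3038, 895, 45.8 and 476 and Myh2 read 345, 17.5, 11.5, 734 and 34.5. Library 2 was the highest for Myh4 and library 4 the lowest, while library 4 was the highest for Myh2. The slow gene Myh7, the embryonic Myh3 and the extraocular Myh13 each took at most 0.164% in any library.

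**Figure D2:**
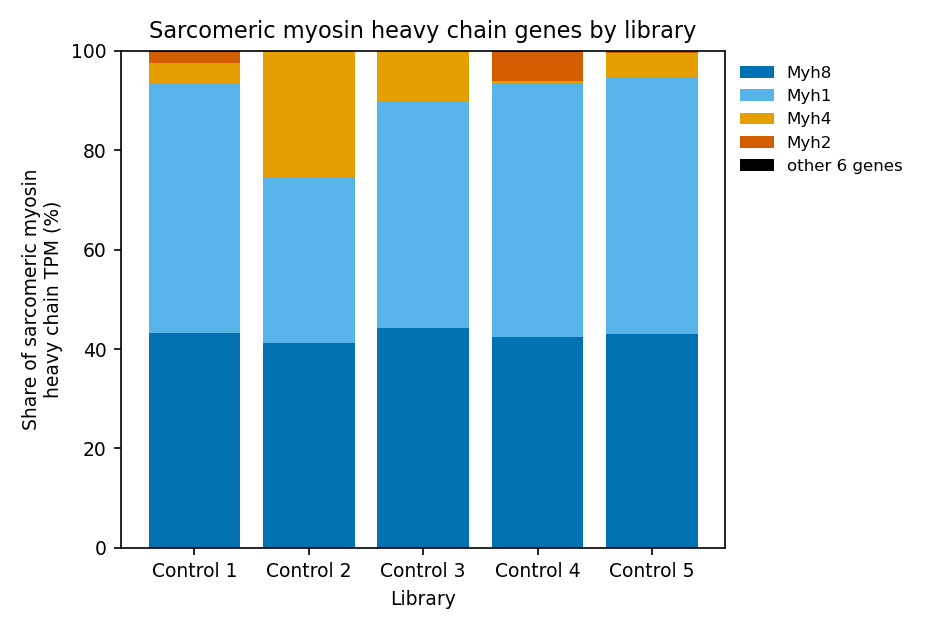
Share of sarcomeric myosin heavy chain TPM (percent, from 0) taken by each gene in each untreated library, as stacked bars that sum to 100%. Myh8 takes between 41.2 and 44.2% in all 5 libraries, while Myh4 ranges from 0.431% in library 4 to 25.2% in library 2.

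These shares rest on exon lengths joined over all annotated transcripts. The tables give Myh8 11772 bases and Myh1 6353 bases although both proteins are of similar size, so the shares depend on the annotation. In counts, Myh8 took 9010 ± 1153 CPM and Myh1 5247 ± 998 CPM, and Myh8 took more counts than Myh1 in all 5 libraries. The skeletal myosin cluster on chromosome 11, 11 identifiers from 67078300 to 67371586, held 1.55 ± 0.212% of counts. Exons of Myh1 overlap the antisense gene Myhas over 8.11% of their bases.

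The summed level of genes for muscle energy and calcium handling was also highest in library 1 and lowest in library 3. The 22 genes summed to 23232, 20778, 16673, 20275 and 16972 CPM in control libraries 1 to 5. Taken singly, 9 of them were highest in library 1 and 10 in library 4, and 15 were lowest in library 3. In the whole set of 14600 genes these numbers were 1928, 6828 and 5899. Aldoa, Pygm, Eno3 and Pgam2 serve glycogen and glucose breakdown and averaged 5322, 2252, 1436 and 299 CPM. The calcium pump Atp2a1 averaged 3283 ± 532 CPM, and its inhibitor sarcolipin (Sln) 533 ± 125 CPM. Phospholamban (Pln), the inhibitor found with the slow and smooth muscle pump, read 14.5, 2.18, 1.84, 32.4 and 3.83 CPM. Parvalbumin (Pvalb), the calcium buffer of the fastest fibres, read 148, 244, 113, 57.5 and 45.8 CPM, with library 2 highest as for Myh4.

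Nerve supply and muscle stem cell genes were measurable. All 11 neuromuscular junction genes were in the set, and they summed to 276, 224, 181, 248 and 229.7 CPM in control libraries 1 to 5. The acetylcholine receptor subunit Chrnb1 averaged 33.9 ± 7.71 TPM, its anchor Rapsn 20.4 ± 5.08 TPM, the agrin receptor Lrp4 17.1 ± 2.45 TPM and the adult subunit Chrne 1.97 ± 0.631 TPM. Of 8 genes of satellite cells and muscle regulation, 7 were in the set, with Myf6 at 36.5 CPM and Pax7, which marks resting satellite cells, at 2.02 CPM. Among 13 neuronal genes 9 were in the set, and Chat, the enzyme of cholinergic neurons, was at most 0.105 CPM, at the level of 3 counts.

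Smooth muscle genes varied much more than striated ones. The 14-gene list summed to 10206, 6519, 5570, 14630 and 7487 CPM, but Tpm2 and Des, which striated muscle also makes, held most of that. The 10 members in no other list summed to 2152, 779, 798, 4976 and 1520 CPM in control libraries 1 to 5, a span of 6.39-fold. Myh11, the smooth muscle myosin heavy chain, read 724, 169, 186, 1973 and 493 CPM, Acta2 652, 208, 248, 1519 and 473 CPM and Actg2, the enteric actin, 178, 43.9, 59.1, 604 and 182 CPM. Library 4 was the highest for these 3 genes and libraries 2 and 3 were the lowest. Of the 14 genes, 10 had a CV of 50% or more, against 6.92% of the whole set, and the list's median CV was 90.8% against 16.6%.

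Chrm2, the muscarinic receptor of visceral smooth muscle, went the same way with 34.4, 2.95, 1.27, 109.6 and 4.33 CPM. Kit, shared by interstitial cells of Cajal and mast cells, read 7, 1.36, 0.839, 15.1 and 2.91 CPM, while Ano1, the chloride channel of interstitial cells, stayed between 37.3 and 52.7 CPM. Mesothelial genes, which mark the covering of body cavities, summed to 21.6, 2.86, 2.85, 72.3 and 7.51 CPM in control libraries 1 to 5. Upk3b read 8.02, 0.227, 0.57, 35.4 and 2.68 CPM and Lrrn4 1.96, 0, 0.0336, 8.83 and 0.383 CPM. Library 4 held the highest value of all 6 mesothelial genes in the set, and of 6828 of all 14600 genes.

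Connective tissue genes were steadier. The 20 fibroblast and matrix genes summed to 7611, 6043, 5728, 9678 and 7031 CPM in control libraries 1 to 5, with a median CV of 20.7%. Gelsolin (Gsn, 2189 TPM), decorin (Dcn, 755 TPM), dermatopontin (Dpt, 518 TPM) and Sparc (316 TPM) led them. Library 4 was the highest for 17 of the 20, against 6828 of all 14600 genes. Pdgfra, the receptor that marks fibroblasts, had a CV of only 6.27%, with 48.5, 43.6, 41.3, 46.8 and 44.1 CPM. Sparc, which other cells also make, had a CV of 54.4%.

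Vessels gave lower values. The 14 blood endothelium genes summed to 533, 305, 309.8, 651 and 401 CPM in control libraries 1 to 5 and the 7 lymphatic genes to 139, 134, 127, 137 and 143 CPM. Pecam1 read 69.6, 42.6, 34.8, 88.9 and 51.7 CPM and Cdh5 42.7, 25.2, 22.8, 55.5 and 32 CPM, both highest in library 4 and lowest in library 3. Prox1, the regulator of lymphatic identity, averaged 4.23 ± 0.969 CPM and the hyaluronan receptor Lyve1, which macrophages share, 55.4 ± 6.73 CPM. Ccl21a had no count in any library. The summed lymphatic list had a CV of 4.25% and the blood endothelium list 34.1%.

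Schwann cell genes were highest in library 5 for most members. The 12 genes of myelinating and resting Schwann cells summed to 260.3, 168, 151, 258 and 292 CPM in control libraries 1 to 5. Sox10, the lineage factor of these cells, read 10.3, 3.27, 2.65, 9.82 and 9.55 CPM. Library 5 was the highest for 8 of the 11 in the set, and library 3 the lowest for 10. Over all 14600 genes these numbers were 2281 and 5899. The myelin gene Mbp, which has further transcripts outside nerve, varied less at 79, 72.4, 75.9, 66.8 and 101 CPM.

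**Figure D3:**
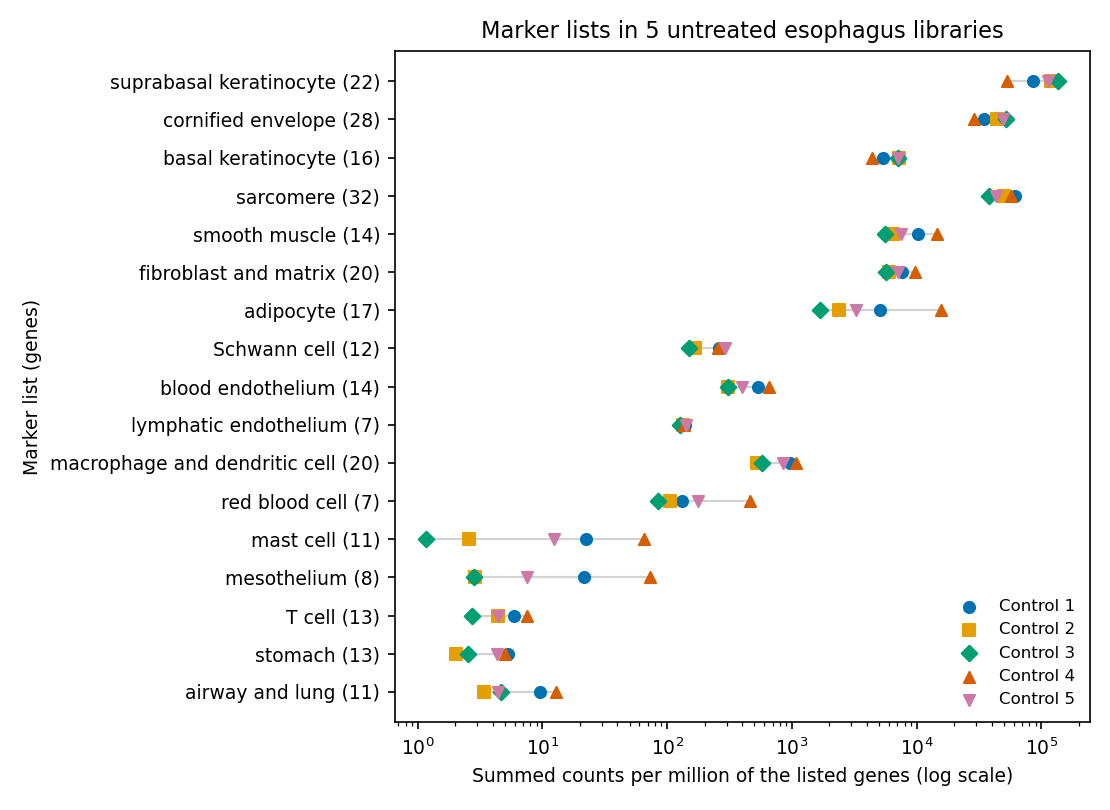
Summed CPM (log scale) of 17 marker lists in each untreated library, 1 symbol per library and a grey line over the range, with the number of listed genes in brackets. Suprabasal, envelope and sarcomere lists lie at 28682 CPM or more in every library, and library 4 lies farthest to the right for the adipocyte, smooth muscle, mast cell, mesothelium and red blood cell lists.

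Fat genes were uneven between libraries. Adipoq, which encodes the hormone adiponectin and is made almost only by adipocytes, read 108, 5.99, 1.44, 439.9 and 56.1 CPM in control libraries 1 to 5. The highest library exceeded the lowest by 305-fold, by 74.8-fold without library 4 and by 73.4-fold without library 3. Adipoq ranked 1374th by mean CPM and 555th by TPM, ranks that rest on library 4: its mean was 122 CPM, and 42.9 CPM without that library. The summed mean of the adipocyte list was 5609 CPM, and 3107 CPM without library 4. All 17 adipocyte genes were in the set, and all 17 had a CV of 50% or more, against 6.92% of the set. All 17 also had their highest value in library 4, as did 46.8% of the set. Library 3 was the lowest for 15 of the 17 and for 5899 of all 14600 genes. Their median CV was 140.3%.

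The adipocyte list summed to 5127, 2365, 1689, 15616 and 3246 CPM, a span of 9.24-fold that fell to 3.04-fold without library 4. Perilipin 1 (Plin1), the coat of the lipid droplet, read 82.4, 5.13, 0.872, 402 and 41.4 CPM, and the droplet protein Cidec 114, 8.26, 1.68, 668 and 68 CPM. The fatty acid carrier Fabp4 read 393, 49.5, 25.6, 1882 and 165 CPM and the secreted protease Cfd (adipsin) 457, 39.9, 5, 1877 and 315 CPM. Leptin (Lep) read 7.91, 0.181, 0.0336, 67.8 and 8.93 CPM, where libraries 2 and 3 held 4 and 1 counts. Car3, which striated muscle also makes, was less uneven at 1880, 1684, 1220, 4313 and 1360 CPM. Across libraries Adipoq over Plin1 in TPM stayed between 3.69 and 5.57, while the libraries spanned 305-fold for Adipoq and 460.2-fold for Plin1.

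Genes of brown fat were highest in library 4 for 8 of the 9 in the set, against 6828 of all 14600 genes. Ucp1, the uncoupling protein that defines brown and beige fat, read 0.175, 1.18, 0.0671, 14.8 and 0.23 CPM in control libraries 1 to 5, and Otop1 0.315, 0.499, 0, 9.01 and 0.192 CPM. Cidea and Dio2 were also highest in library 4 at 54.6 and 19.3 CPM, against at most 15.6 and 3.41 CPM elsewhere. The most abundant genes of the list, Cox8b and Cox7a1, are shared with striated muscle and had CVs of 41.4% and 33.9%.

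Of the immune cell lists, the joint list of macrophages and dendritic cells had the highest sum. The 20 macrophage and dendritic cell genes summed to 964, 527, 571, 1078 and 853 CPM in control libraries 1 to 5. Lysozyme (Lyz2) read 233, 134, 156, 239.7 and 199.8 CPM and the invariant chain Cd74, which loads class II molecules, 162, 69.8, 78.5, 189 and 135 CPM. C1qa, C1qb and C1qc averaged 48.5, 37 and 39.5 CPM. The Langerhans cell marker Cd207 and the dendritic cell markers Xcr1 and Flt3 were under 1 CPM on average.

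Most T cell genes and the eosinophil granule genes were near the floor. Of 13 T cell genes only Trdc, the constant chain of gamma-delta T cell receptors, was in the set, at 1.09 ± 0.269 CPM, and Cd3e was at most 0.292 CPM. Of 13 B cell and plasma cell genes 3 were in the set, led by Ighm (13.4, 10.7, 3.96, 18.8 and 5.18 CPM). Eosinophil peroxidase (Epx) and Prg2, granule proteins of eosinophils, were at most 0.073 and 0.11 CPM, which is 2 and 3 counts. The other defining eosinophil genes Ccr3 and Siglecf were at most 0.219 and 0.175 CPM. These are at most 6 and 5 counts. Of 13 neutrophil genes 6 were in the set, and the list summed to 62.4, 50.7, 56.7, 68.4 and 51.2 CPM in control libraries 1 to 5. Its largest member S100a9, a calcium-binding protein that stands in the S100 list too, averaged 33.8 ± 11 CPM.

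Mast cell proteases were detected unevenly. Mcpt4, the chymase of connective tissue mast cells, read 4.55, 0.272, 0.0671, 15.8 and 3.1 CPM in control libraries 1 to 5 and Cma1 3.22, 0.454, 0, 10.5 and 1.92 CPM. The mucosal proteases Mcpt1 and Mcpt2 were at most 0.07 and 0.0454 CPM. Mast cell genes followed the order of the fat genes, with library 4 highest, then library 1, then library 5. Haemoglobin, the oxygen carrier of red cells, was also highest in library 4: Hbb-bs read 66.6, 50, 42.4, 234 and 84.5 CPM and Hba-a1 47.5, 38.6, 31.5, 157 and 64.1 CPM. Reads of haemoglobin copies may be shared between them.

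Genes of neighbouring organs were checked because pieces of them can be dissected with the tube. Thyroglobulin (Tg) was at most 0.584 CPM, and Nkx2-1, shared by thyroid and lung, at most 0.0383 CPM, which is 1 count. In the stomach list Gkn1 and Atp4b were at most 0.035 and 0.182 CPM, and 5 of 13 genes had no count. Of 11 airway and lung genes only the secretoglobin Scgb1a1 was in the set. It read 8.58, 2.81, 3.66, 12.2 and 3.95 CPM in control libraries 1 to 5. The ciliated cell regulator Foxj1 was at most 0.235 CPM. Other lists of neighbouring organs also had members in the set. These were 2 of 11 thyroid and parathyroid genes, 2 of 13 stomach genes and 2 of 9 cartilage genes. Of 9 thymus and lymph node genes 2 were in the set as well. Cartilage Col2a1 reached 0.115 CPM and Acan had no count. Amy1 read 26.5, 9.3, 9.7, 60.9 and 14 CPM but shares 32.7% of its exon bases with Rnpc3 on the same strand, so its reads are uncertain.

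Transcription factors that mark regions of the gut tube were mostly present. Pitx1 led the 26 listed factors at 329 ± 71.3 TPM. Klf5, a keratinocyte factor, averaged 127 ± 39.2 TPM, Sox2, which separates esophagus from trachea in the embryo, 84.6 ± 19.5 TPM, and Pax9, needed for esophageal differentiation, 67.5 ± 18.9 TPM. Tbx1 (129 ± 23.5 TPM) and Isl1 (16.5 ± 5.01 TPM) act in the branchiomeric muscle lineage to which esophageal striated muscle belongs. The intestinal factor Cdx2 had no count, and Foxa2 was at most 0.0383 CPM. The Hox genes Hoxc4 and Hoxc5 averaged 32.6 ± 5.35 TPM and 19.9 ± 3.32 TPM.

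Several of these factors differed between libraries. Hoxc8 read 14.2, 4.17, 3.15, 37.8 and 16.3 CPM in control libraries 1 to 5, Barx1, a factor of stomach mesenchyme, 2.21, 0.408, 0.336, 12.6 and 1.65 CPM, and Gata4 1.23, 0, 0.0671, 3.1 and 0.46 CPM. All 3 were highest in library 4. Gata6 went the same way at 5.22, 1.73, 1.07, 9.53 and 2.61 CPM. Foxe1, a factor of thyroid and upper foregut epithelium, read 16.1, 23.2, 22.7, 10.3 and 21.4 CPM and was lowest in library 4, the reverse of those 4. Of the 21 listed factors in the set, 8 were highest in library 4 and 7 were lowest there. Among all 14600 genes, library 4 was the highest for 6828 and the lowest for 2963.

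Across all 14600 genes the median CV between the 5 libraries was 16.6%, with 10% of genes under 6.25% and 10% above 43%. Counting alone would give a median of 4.3%, and 518 genes had a CV no larger than their counting value. A CV of 50% or more was reached by 1010 genes (6.92%) and of 100% or more by 219. Spread depended on level: median CV was 31% from 1 to 3 CPM, 11% from 30 to 100 CPM and 21.1% for the 75 genes at 1000 CPM or more, where counting gives 0.425%. Without library 4 the genes at 50% or more numbered 476 and those at 100% or more 70. edgeR's biological CV, which removes counting noise, was 26.5% as a common value. That value is pooled over genes and is no median. For single genes the median of edgeR's biological CV was 19.95%.

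**Figure D4:**
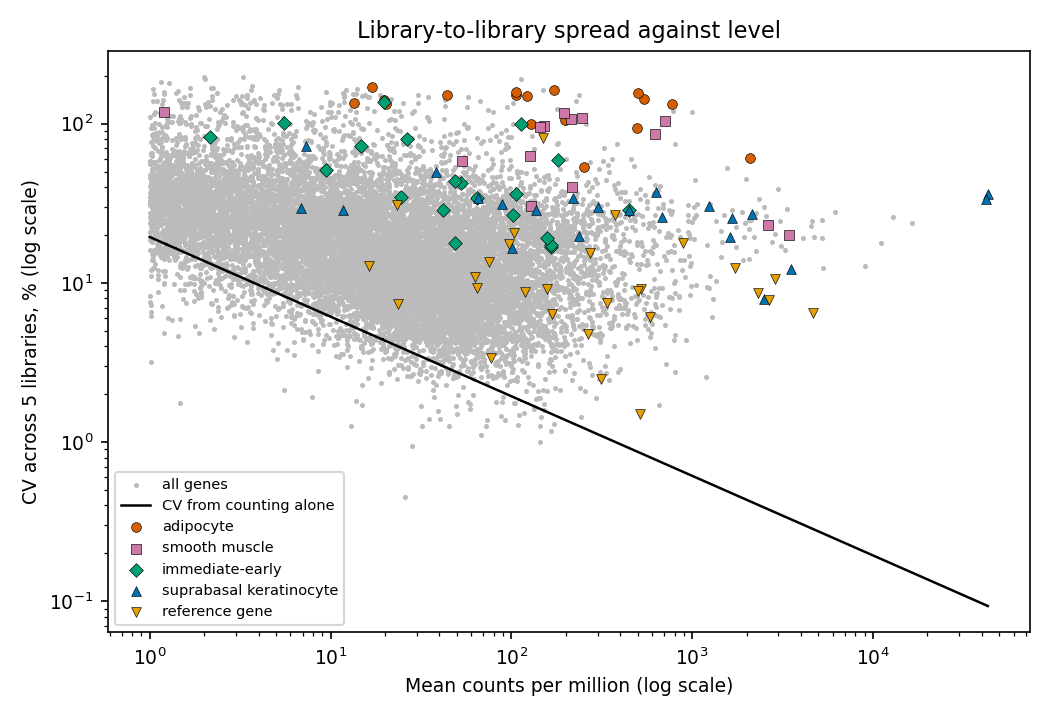
Coefficient of variation over 5 untreated libraries (percent, log scale) against mean CPM (log scale), 1 point per gene, with 5 marker lists coloured and the CV from counting alone as a black line. All 17 adipocyte and 10 of 14 smooth muscle genes lie at 50% or more, and of the reference genes B2m alone does.

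The lowest CV among genes at 50 CPM or more was that of Slc6a6. This gene, which encodes the taurine carrier, read 146, 144, 143, 142 and 145 CPM in control libraries 1 to 5, a CV of 1.01%. Eif2a, Arih1, Abcf1, Cdc123, Csnk2a1, Prkar2a, Bcl2l13, Chd8 and Ppp1ca followed with CVs from 1.11% to 1.43%. Of these 10 genes 9, all but Ppp1ca, had a CV below the one that counting error alone gives. They were the lowest of many and their CVs hold for scaling by totals: under TMM the same 10 genes had CVs from 5.96 to 7.86%, and under DESeq2 size factors from 6.31 to 8.28%. The 81 cytosolic ribosomal protein genes held 4.15 ± 0.268% of counts, with a median CV of 7.25%. Library 4 was the lowest at 3.7% and library 2 the highest at 4.4%.

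Reference genes used for quantitative PCR ranged from very even to uneven. Over 28 such genes the median CV was 9.2%. Vcp had the lowest at 1.49%, with 514, 516, 514, 522 and 501 CPM in control libraries 1 to 5, followed by Ppia (2.48%, 315 ± 7.8 CPM), Polr2a (3.38%), Rab7 (4.77%), Rps18 (6.12%), Psmb4 (6.37%) and Eef1a1 (6.5%). Pgk1, Eef2, Hsp90ab1, Hprt, Gpi1, Chmp2a, Rpl13a and Snrpd3 lay between 7.47 and 9.34%. Gapdh read 3207, 3084, 2670, 2926 and 2465 CPM (10.5%) and Actb 759, 706, 1049, 1042 and 880.0 CPM (17.8%), and 53.7% of the set had a lower CV than Actb. Emc7, Rplp0, Tbp, Tfrc and Ywhaz fell between 10.9 and 15.4%, and Reep5, Sdha and Gusb between 20.5 and 31%.

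B2m stood apart from the other reference genes. This gene, which encodes the light chain of class I molecules, read 153, 70, 58.7, 358 and 112 CPM, a CV of 81.2%, and 97.6% of the set had a lower one. Scaling moved the order: under TMM Vcp rose to 6.82%, Psmb4 became the most even at 4.01% and Eef1a1 rose to 12.5%. The median over the 28 genes was 12.2% under TMM and 7.74% without library 4.

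Of the 1010 genes with a CV of 50% or more, 838 were highest in library 4 and 613 were lowest in library 3. Over all 14600 genes, library 3 was the lowest for 5899. Library 4 was also the highest for 46.8% of all 14600 genes, a share that fell to 32% under TMM scaling, while 643 of then 840 genes at 50% or more were still highest there. Library 4 highest, then 1, then 5 was the order in 641 of the 1010 (63.5%), against 20.3% of the whole set. The summed adipocyte, smooth muscle, mesothelium and mast cell lists and Krt1 had this order. The 10 genes of highest CV at 10 CPM or more were Krt1, Lep, Ppp1r3b, Orm1, Cidec, Thrsp, Plin1, Nat8l, Fabp4 and Mrap, and all were highest in library 4. The mitochondrial share of counts was also highest in library 4, and its part in this was not tested.

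Some genes went the other way, and those named here were low in library 4 alone. Library 4 was the lowest for 74 of the 1010 genes with a CV of 50% or more, and for 2963 of all 14600. Ada, the purine enzyme adenosine deaminase, read 1452, 1834, 2407, 232 and 1895 CPM in control libraries 1 to 5. Dynap read 22.1, 33.5, 45.9, 1.68 and 45 CPM, the glutathione transferase Gstm3 12, 20.1, 27.9, 2.12 and 20.6 CPM and Krt32, a hair-type keratin, 76.9, 139.9, 156, 20.6 and 102 CPM. Library 4 lay below all other libraries in each. All were picked from the genes with the largest gaps below the other libraries, so that gap follows from the choice. Ada ranked 53rd of the set by mean CPM.

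Libraries 1 and 2 shared a different group. Chil4, a chitinase-like secreted protein known from type 2 responses, read 399, 444, 9.13, 26.4 and 14.9 CPM in control libraries 1 to 5. The lipoxygenase Alox15 read 29.3, 30.6, 0.235, 3.9 and 0.23 CPM and lactoferrin (Ltf) 10.5, 14.4, 0.369, 0.912 and 0.575 CPM. These 3 genes were named for their large ratios in libraries 1 and 2, so the gap to the other libraries follows from that choice. Alb, which is made by liver, was high in library 1 alone at 20.3, 2.09, 0.503, 0.438 and 2.72 CPM. Alox15 stands in the eosinophil list, whose granule genes were near the floor in the same libraries.

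Immediate-early genes, which cells switch on within minutes of a stimulus, had their highest sums in libraries 3 and 5. The 20 genes summed to 1239, 1607, 2648, 1395 and 2104 CPM in control libraries 1 to 5. Egr1 read 25.4, 52.1, 292, 41.4 and 155 CPM, Fos 7.07, 17, 58.4, 12.1 and 37.5 CPM, Fosb 1.47, 4.76, 66.5, 6.09 and 20.4 CPM and the growth factor Hbegf 22.3, 35.5, 149, 19.9 and 58.3 CPM. Egr1, Fos, Fosb and Hbegf were named for large ratios in library 3, so their gap there follows from that choice. Library 3 was the highest for 15 of the 20, against 2170 of all 14600 genes. Library 5 was the highest for 3 of the 20, against 2281 of all 14600. Jun and Jund had CVs of 16.7% and 17.3%.

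**Figure D5:**
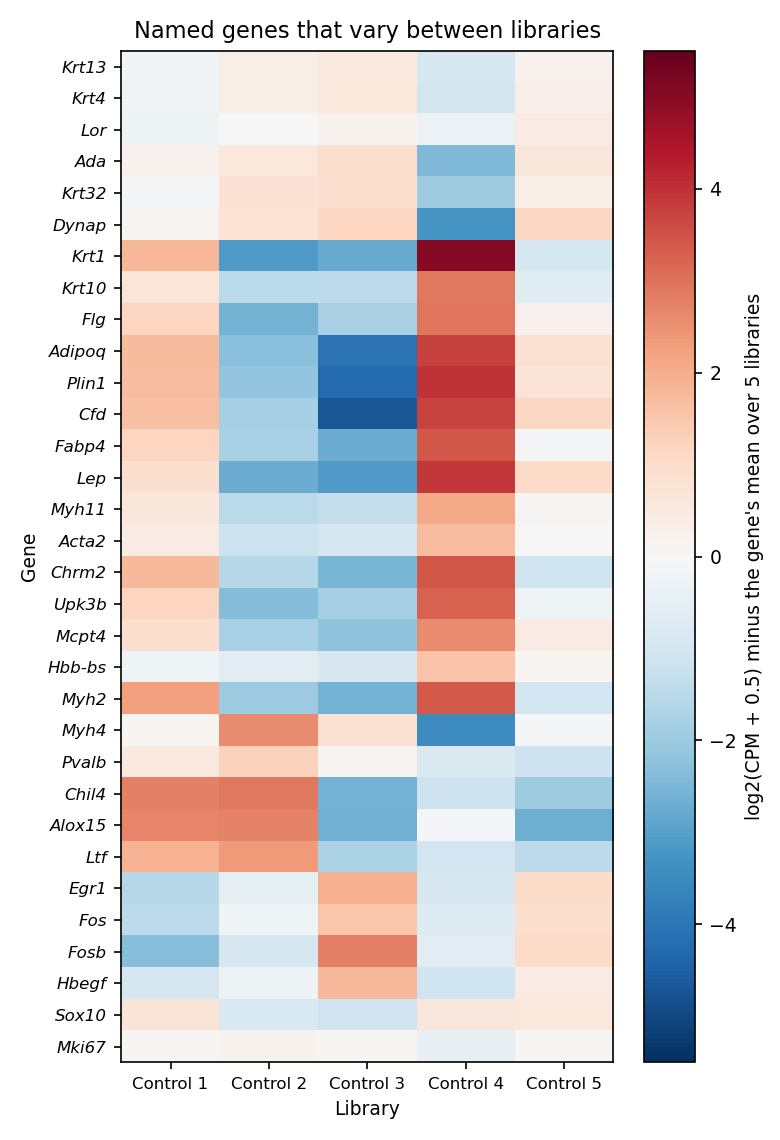
Level of 32 named genes in 5 untreated libraries as log2(CPM + 0.5) minus the gene's own mean, from blue (below) to red (above). Library 4 is above the mean for fat, smooth muscle and Krt1 genes and below it for Ada, Krt32, Dynap and Myh4, libraries 1 and 2 are above for Chil4, and library 3 for Egr1, Fos and Fosb.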

How the data were processed

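Poly(A) RNA-seq libraries of whole mouse esophagus were used as gene count tables deposited by the authors, with raw counts and an exon length (Length) per Ensembl identifier. STAR 2.6.1c, Subread, FastQC and bcl2fastq, with build mm10, are the tools behind these counts per the submitters' processing notes. Which annotation release, Subread version and strand setting applied, and how multi-mapped reads were treated, is not given in the sources used here. Symbols, found for 48970 of 49315 identifiers, came from a table of gene names, and biotypes from GENCODE M21, in which 44858 had the same start and end. Exon overlaps were computed from the exon coordinates deposited with the counts. The 3 SDS libraries were not analysed here.

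Counts were divided by each control library's total (CPM), and TPM was computed with Length. Genes with a mean of at least 1 CPM over the 5 control libraries formed the set. The spread is the CV of CPM, and counting error alone gives the counting CV. No comparison between groups was made, since there is 1 group; the check for libraries standing apart is the only test. The scripts were tested on simulated data. R 4.3.3 with edgeR 4.0.16 (TMM, biological CV) and DESeq2 1.42.0 (size factors) and Python 3.11.15 with pandas 2.3.3, numpy 2.4.6 and scipy 1.17.1 were used. Intervals are 95% Wilson intervals; they and the floor of 3 counts cover counting error only.

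Named genes were the 20 highest by CPM and by TPM, the 5 layer markers, up to 4 members of each of 43 gene lists by CPM and members needed to account for values near 0, the 10 highest CVs at 10 CPM or more and 10 lowest at 50 CPM or more, the reference genes, the 5 largest rank moves each way within the first 500, the 5 genes of each library farthest from the median of the others, and 4 genes around 1 CPM. Any further gene named, the ratios, the cluster ends and the ribosomal protein set were chosen after their values were seen. A few genes that the rule names are not reported here. Members and lists were chosen with earlier results of these data known. Alternatives were other scalings, other filters, shares of TPM, edgeR's biological CV and leaving out each library.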

Additional observations from a re-analysis of the deposited data

Results flagged for a closer look

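Of 64 values examined for a library standing apart, 5 had an end value whose gap to its nearest neighbour, as a share of the whole range of the 5 libraries, exceeded the critical 0.71; chance gives this in about 1 in 20 groups. All 5 had library 4 as the highest. Adipoq read 439.9 CPM there against 108 in the next library, a share of 0.7571. The adipocyte list summed to 15616 against 5127 CPM (0.7531), the red blood cell list to 463 against 177.8 CPM (0.7551) and the mesothelium list to 72.33 against 21.57 CPM (0.7306). The interferon response list, genes that type I interferon switches on, summed to 325.6 against 205.5 CPM (0.7473), and Ifi27 held most of its counts. All 5 values come from the same libraries and are not independent. Over all 14600 genes 879 (6.02%) exceeded the same value, and library 4 was the high end for 539 of them.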

How the results depend on the processing

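No paired analysis was possible because a single group was described. Over 75 results and 602 alternatives, 583 values stayed within 1 SD of the libraries, or within 1.5 times for counts, ratios and CVs, and 19 moved further. Leaving out 1 of 5 libraries cannot shift a mean by 1 SD of the libraries, so for means these alternatives were bound to stay. Mean Adipoq fell from 122.3 to 42.88 CPM without library 4 and still counted among the 583. The tally is therefore no measure of robustness. The set held 14588 genes under TMM, 14587 under DESeq2 size factors and 14429 to 14685 with a library left out. Per length, the first 100 genes held 45.27% of TPM against 32.3% of counts, and 153 genes held 50% of TPM. Genes with a CV of 50% or more numbered 1010, or 572 by edgeR's biological CV, 12923 with no filter on level and 343 at a mean of 10 CPM or more; leaving out a library gave 476 (without library 4) to 1327 (without library 1). At 100% or more there were 219 genes, or 102, 7963 and 85 under the same settings and 70 to 301 with a library left out, again lowest without library 4. The median CV was 16.6%, or 39.85% with no filter. With a library left out, highest over lowest ran from 1.598 to 2.733 for Krt13, 1.697 to 2.959 for Krt4, 1.605 to 2.59 for the suprabasal list and 3.035 to 9.244 for the adipocyte list, in each case lowest without library 4, and from 73.43 (without library 3) to 304.9 for Adipoq. TMM and DESeq2 size factors gave 3.261 and 3.291 for Krt13, 3.531 and 3.563 for Krt4, and 3.091 and 3.119 for the suprabasal list. The CV of Eef1a1 was 12.48% under TMM and 12.71% under DESeq2 size factors against 6.5%. The alternative without features under 200 bases was chosen after seeing the data. Genes near 1 CPM rest on about 22 to 30 counts a library, which limits what their spread can show.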

Other observations

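Stress, clock and fasting genes were not described above. The 10 heat shock genes were all in the set, with a median CV of 14.2%, and summed to 5515 ± 251 CPM; Hspb1, a small chaperone of keratinocytes and muscle, averaged 2348 ± 281 TPM and Hsp90ab1 1904 ± 155 TPM. The 16 circadian clock genes summed to 1309 ± 96 CPM with a median CV of 17%. Dbp, an output gene of the clock, read 192, 145, 116, 183 and 143 CPM in control libraries 1 to 5, and Nr1d1, a repressor within the clock, 217, 195, 156, 162 and 201 CPM. The 14 genes that answer glucocorticoid or fasting summed to 1630 ± 170.0 CPM; Pdk4, which spares glucose in fasting muscle, read 145, 69.3, 94.2, 141 and 78.5 CPM, and the metallothionein Mt2 114, 148, 111, 80.9 and 117 CPM. None of the heat shock or clock genes had a CV of 50% or more. The share over the whole set was 6.92%, so none in lists this small is near that share and does not set these genes apart.

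Interferon response genes were low in all libraries apart from Ifi27. Ifi27 read 108, 108, 104, 171 and 94.8 CPM in control libraries 1 to 5. Mx1, Mx2 and Ifi44 were outside the set. Library 4 was the highest for 12 of the 13 genes in the set, against 6828 of all 14600 genes.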
